A study of Rattus norvegicus with 16 samples.

Results

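The unmodified circRNA fraction of the spinal cord was compared between morphine-tolerant rats (MT group) and saline-treated rats (NS group). This fraction is the supernatant (SUP), the RNA that an antibody against N6-methyladenosine (m6A) left behind by the protocol in the labels and the methods (another label of these samples reads input in the field for the antibody, and the protocol was followed here), and it makes up 8 of the 16 samples of the series, 4 from each group. Of the 14145 circRNA probes on the array, 13347 were tested, namely those with a SUP spot well above background and not marked as an outlier on at least 4 of the 8 arrays. Each array held the RNA of 1 adult male Sprague-Dawley rat, taken from its lumbar cord. In the MT group, 10 μg of morphine hydrochloride in 10 μl was given through an intrathecal tube every morning and evening for 7 days. The NS group had been given normal saline alone, in the same volume and at the same hours. By the methods, the cords were taken after a further injection on the following morning, so that tolerance and recent exposure to morphine come together in the MT group. Both the antibody-bound fraction (IP) and SUP were digested with RNase R, an enzyme that removes linear RNA. Cy5 marked IP and Cy3 marked SUP on every array, with no dye swap, and the deposited labels call the 4 rats of each group biological replicates.

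CircRNAs are closed loops that arise when a downstream splice donor is joined to an upstream acceptor, and they are abundant and stable in the nervous system. In m6A, a methyl group sits on the nitrogen at the edge of adenine. Methyltransferase complexes that include METTL3 add it, the demethylases FTO and ALKBH5 can take it off, and proteins with a YTH domain recognise it. A circRNA that was higher in SUP had more signal from molecules that the antibody left behind, relative to the normalization used. How completely the antibody bound modified copies was not measured. SUP alone gives neither the m6A level nor the total amount of a circRNA. Since whole tissue was used, fewer cells of a type and less RNA per cell cannot be told apart.

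The oligonucleotides that define a circRNA in an assay span its joined ends or lie within the loop. The files give no circRNA probe sequence, so the designed qPCR primers of rno_circRNA_012088, from the muskelin gene Mkln1, are shown here because this circRNA was both on the study's list and among the circRNAs with the largest increases in SUP. Both are 20 bases, written 5′ to 3′.
rno_circRNA_012088 forward: ttgtttggtggctgggatgg
rno_circRNA_012088 reverse: agcaggcctttcaagcttca

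The 8 SUP arrays had comparable signal but 2 rats stood apart. The median processed SUP intensity of a circRNA probe was between 314 and 559 per MT rat and between 360 and 477 per NS rat, against a median local background of 16 to 20. The share of circRNA probes well above background was 90.3% to 96.3%, and 0 were saturated. In a principal component analysis with the 75th percentile of the arrays set equal, the first component held 68.9% of the variance. It placed NS replicates 3 and 4 at 56.9 and 54.8, MT replicate 1 at −49.7 and the other 5 rats between −25.1 and 3.25. The SUP values of NS replicates 3 and 4 had a correlation of 0.991 across circRNAs (no independent replicates), within the range of 0.912 to 0.993 over all pairs of rats. These 2 rats also had the lowest background-subtracted medians before dye normalization, 38.9 and 42.8 against 56.6 to 90.3 in the other rats, and the largest Cy3 dye factors, 11.1 and 9.60 against 6.31 to 9.06. Their part in the results was not tested beyond leaving them out. All MT arrays share one line of the slide, and all NS arrays share another, so that position and group cannot be told apart.

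The median circRNA level of SUP had a higher mean in the MT group, by an amount that depended on the scale and that on all but 1 of the scales below did not exceed the scatter of the rats. After spike-in normalization, the SUP intensity over the 12247 circRNAs well above background on all 8 arrays had a median (log2) of 9.61, 9.25, 9.30 and 9.13 in MT replicates 1 to 4. It was 9.21, 9.17, 8.66 and 8.69 in NS replicates 1 to 4. The highest NS rat lay above the lowest MT rat, and NS replicates 3 and 4 were the lowest of all. The means were 9.32 ± 0.21 (SD, n = 4) and 8.93 ± 0.30 (SD, n = 4), a difference of 0.39 that did not exceed the scatter of the rats (exact permutation test, two-sided, 70 splits of the rats, p = 0.114). It was 0.13 without NS replicates 3 and 4 (exact permutation test, p = 0.6). With the 75th percentile of the arrays set equal it was 0.12 over all 8 rats (exact permutation test, p = 0.143), and 0.0401 on that scale without NS replicates 3 and 4 (exact permutation test, p = 0.6). Without normalization between arrays the difference was 0.11 (exact permutation test, p = 0.543). The spike-in probes moved the other way, with a mean of 9.53 for MT and 9.81 for NS before normalization, a difference of −0.28 (exact permutation test, p = 0.0571). The probes for linear transcripts moved like the spike-ins, by −0.26 (exact permutation test, p = 0.0857). When the circRNA median of each rat was set against the mean of its own linear probes, it lay 0.85, 0.70, 0.71 and 0.55 above it in the MT rats and 0.55, 0.53, 0.13 and 0.13 above it in the NS rats. That scale, chosen after the data were seen, gave a difference of 0.37 (exact permutation test, p = 0.0286, the smallest that 4 rats against 4 allow), and the lowest MT rat was 0.551 against 0.549 in the highest NS rat. IP of the same rats differed by 0.08 (exact permutation test, p = 0.486).

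**Figure D1:**
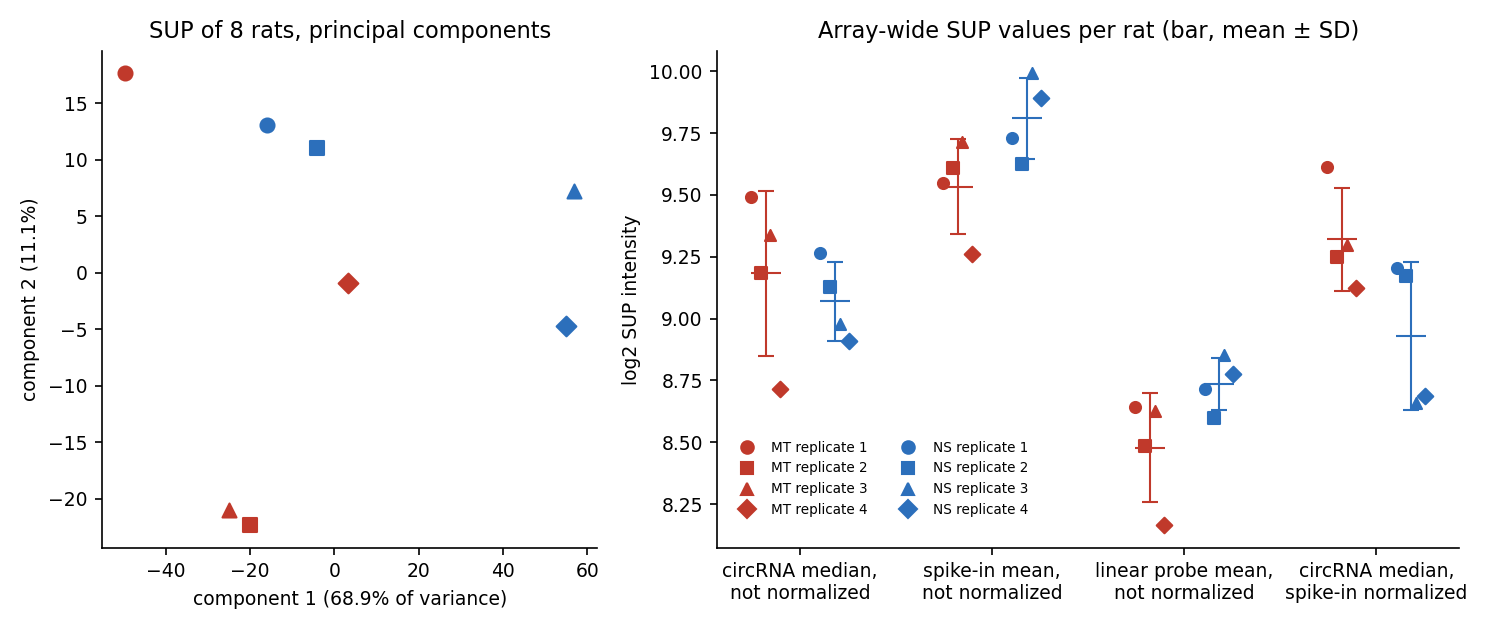
Left, the 8 rats by the first 2 principal components of SUP, with NS replicates 3 and 4 on the far right. Right, log2 SUP intensity per rat for the circRNA median, the spike-in mean and the linear probe mean before normalization and for the circRNA median after it, with lines for the mean ± SD of 4 rats. The spike-in means were lower in the MT group by 0.28, which raised the normalized circRNA medians.

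CircRNAs that passed the criterion in SUP were nearly all higher in the MT group. The study's criterion is a change of 1.5-fold or more with P below 0.05 before adjustment. By it, 2156 circRNAs, or 16.2% of those tested, were raised in the MT group and 15, or 0.112%, were lowered (limma). After adjustment 0 circRNAs were below 0.05, with limma as with the methods' t-test, which they name for the qPCR data and not for the arrays. The smallest adjusted P of limma was 0.161, shared by 540 circRNAs, and that of the methods' t-test was 0.216. Before adjustment, limma put 3088 circRNAs below 0.05 and the methods' t-test 2463, where 5% of those tested is 667. Over all circRNAs the log2 change had a median of 0.28. The SD of a single circRNA within a group had a median of 0.287. The number of rats limits the precision of every value.

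The direction of these calls was relative to the normalization. With the 75th percentile set equal, the median change was 0.01, and 1250 circRNAs (9.37%) were raised and 251 (1.88%) were lowered. The raised share of the calls was 99.3% with the spike-ins and 83.3% with the percentile. Changes on the deposited scale had a median of 0.13. Every MT rat lay above every NS rat in 1470 circRNAs, or 11.1% of the 13289 measured on every array, and below in 135, or 1.02%. With the percentile these counts were 825 (6.21%) and 830 (6.25%), so that the excess of one direction among separate groups was seen with the spike-ins only of these 2 scales. In 479 circRNAs the increase passed the criterion and the groups were separate on both scales, and in 6 the decrease did.

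The number of raised circRNAs rested in large part on NS replicates 3 and 4 and on MT replicate 1. Leaving out 1 rat gave 1043 raised circRNAs without NS replicate 3, 1100 without NS replicate 4 and 1066 without MT replicate 1, and 3828 without NS replicate 1. NS replicates 3 and 4 were the lowest 2 of the 8 rats in 93.3% of the raised circRNAs measured on every array, against 49.3% of all such circRNAs. Without both of them, 360 circRNAs (2.7%) were raised and 54 (0.405%) were lowered with the spike-ins, and 249 and 129 with the percentile, with 2 rats in the NS group. The higher direction thus remained the more frequent one among the calls in both settings, at a smaller number.

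**Figure D2:**
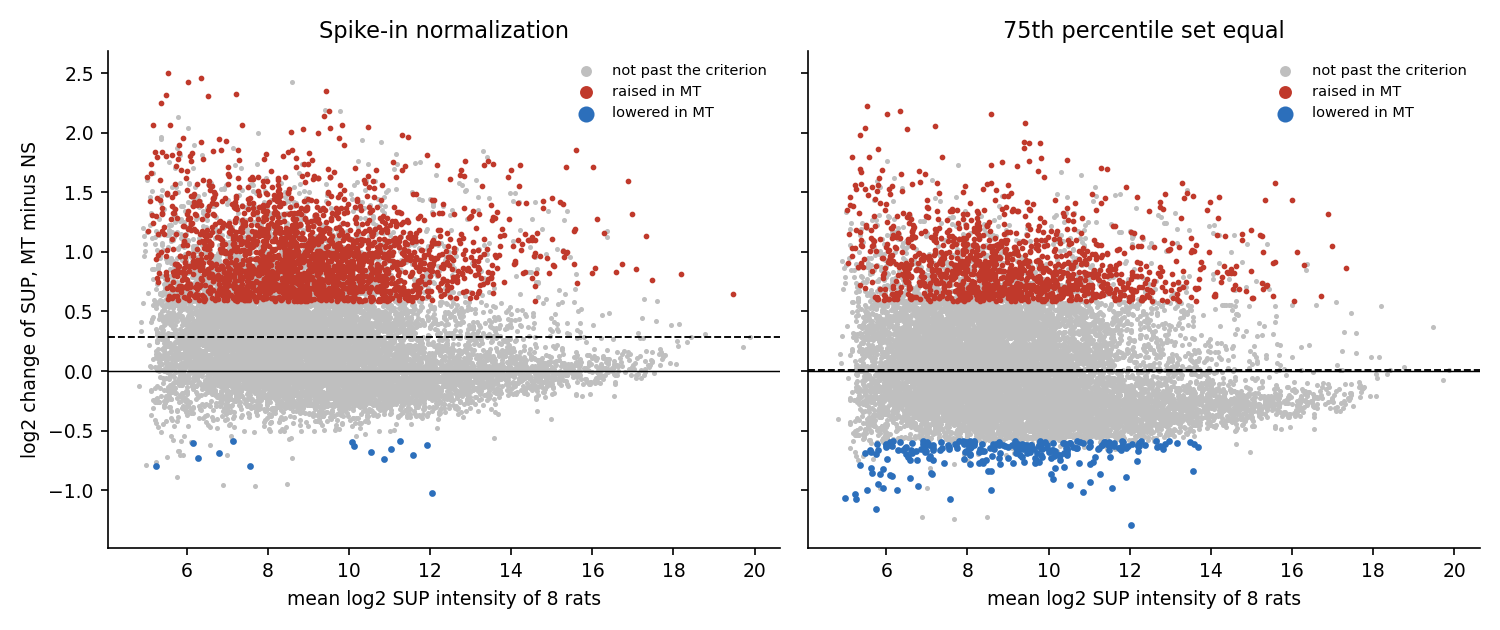
Log2 change of SUP (MT minus NS) of each circRNA against its mean log2 SUP intensity over 8 rats, with the spike-in normalization on the left and the 75th percentile on the right. The dashed lines mark the median changes of 0.28 and 0.01, and the cloud bends downward among the brighter circRNAs. The scales differ by a constant per array, so the shape is nearly the same in both panels.

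The change in SUP differed between circRNAs by their ratio of IP to SUP intensity. The 12669 circRNAs well above background in both channels on at least 4 arrays were put in order by their mean log2 ratio of IP to SUP over all 8 rats and divided into 5 bins of equal size. In the bin with the lowest ratio, whose median log2 ratio was −1.92, the median SUP change was 0.75 and 43.0% were raised. In the next bin the median change was 0.44 and 18.4% were raised. The remaining bins had median changes of 0.16, 0.07 and 0.04, with 6.75%, 4.81% and 3.51% raised. The lowest bin held 1090 of the 1938 raised circRNAs among these. With the percentile, the medians ran from 0.48 in the lowest to −0.23 in the highest bin, and the sign of the last 3 turned. That scale shifts each array by a constant, so the order of the bins was all but fixed. Without NS replicates 3 and 4 the median was 0.27 in the lowest bin and between 0.02 and 0.10 in the others, and 7.30% were raised in the lowest against 0.99% in the highest. SUP is a term of this ratio over the same rats, so a higher SUP in the MT rats itself moves a circRNA toward the lowest bin. The ratio sets Cy5 against Cy3 without a dye swap and is not a measured bound share. These values describe circRNAs, with no test across them.

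The brightness of the SUP spot went with the change as well. With the circRNAs in 10 bins by their mean SUP intensity, the median change was 0.40 in the dimmest bin and 0.05 in the brightest. The share raised was highest in the middle of the range, at 19.3%, and lowest in the brightest bin, at 11.3%. When NS replicates 3 and 4 were left out, the medians were between 0.03 and 0.12 over all 10 bins. The dimmest bin was then at 0.07, below the next 7 and no longer the highest, while the brightest bin was again the lowest. Of the raised circRNAs, 1938 were also well above background in IP, where their median change was 0.26 and 82.2% had a higher mean in the MT group. Over all 12669 circRNAs, the median change in IP was 0.01 and 52.4% were higher. The IP and SUP values of a rat share the array and its dye normalization.

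Apart from a circRNA of Mkln1 that the study lists, the circRNAs with the largest increases could only be named by probe, because neither the array files nor the reference tables give the circRNA or the host gene of a probe. Those described had passed the criterion with separate groups on both scales. Among the 12 largest, the log2 change was between 1.78 and 2.43 with the spike-ins and between 1.51 and 2.16 with the percentile. Their adjusted P was between 0.161 and 0.193 by limma. NS replicates 3 and 4 were the lowest rats in all 12, and without them the changes were between 0.87 and 1.39, with 8 of the 12 still past the criterion. In 5 of the 12, SUP was well above background on at most 2 of the NS arrays, and the size of the change is uncertain there. These 5 met the filter through the MT arrays, where they were high, so their P values are no support for a change. With normexp, which adds an offset of 50 to every signal, these 5 lost the criterion, with changes between 0.21 and 0.41.

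The brightest of the 12 was the circRNA of probe ASCRPR004492. Its log2 SUP intensity was 16.31, 17.12, 16.64 and 16.00 in the MT rats and 15.26, 15.22, 13.73 and 14.45 in the NS rats. Every MT rat was above every NS rat by a clear gap, and NS replicate 3 was the lowest. The mean was 16.52 ± 0.48 (SD, n = 4) against 14.66 ± 0.73 (SD, n = 4), a 3.61-fold increase with a log2 change of 1.85 (standard error 0.39, adjusted P = 0.161 by limma). Its change was 1.28 without NS replicates 3 and 4. Its IP changed by 0.49 (standard error 0.55), less than its error.

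Probe ASCRPR002498 had the largest estimate, but it was dim and its size has no sure rank. It was at 7.57, 7.47, 7.23 and 6.65 in the MT rats and at 6.16, 6.40, 2.99 and 3.66 in the NS rats. Both low NS rats were not well above background. The log2 change was 2.43 (standard error 0.77), 0.95 without them and 0.41 with normexp background correction. The probe met the filter through the MT arrays, so no P is given. Its IP was well above background on 0 arrays.

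Probe ASCRPR002355 followed with a log2 change of 2.35 (standard error 0.72), and without NS replicates 3 and 4 it was 1.39 and no longer past the criterion on either scale. Its SUP was 12.29, 10.32, 10.01 and 9.78 in the MT rats and 8.97, 9.45, 7.78 and 6.78 in the NS rats. MT replicate 1 was far above the other rats, and both groups spread widely, with SDs of 1.15 and 1.20. Probe ASCRPR013093 had the same outline, with 12.20 in MT replicate 1 against 9.78 to 10.11 in the other MT rats and 6.93 to 9.74 in the NS rats. Its change was 2.04, and without NS replicates 3 and 4 it was 0.87 and no longer past the criterion on either scale.

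Probe ASCRPR005960 was at 12.82, 12.11, 13.01 and 11.78 in the MT rats and at 11.55, 11.08, 9.52 and 9.72 in the NS rats. The groups came closest at MT replicate 4 and NS replicate 1. Its log2 change was 1.97 in SUP (standard error 0.50), 1.12 without NS replicates 3 and 4, and 0.53 in IP (standard error 0.28). Probe ASCRPR012352 was at 8.96, 7.86, 8.59 and 7.30 in the MT rats against 6.90, 7.03, 5.57 and 5.80 in the NS rats, a change of 1.85, and 1.21 without NS replicates 3 and 4. Its IP changed by 0.91. The remaining circRNAs of the 12, apart from that of Mkln1 given with the listed circRNAs, were those of ASCRPR000633 (1.82), and of the dim probes ASCRPR012576 (1.96), ASCRPR003499 (1.90), ASCRPR012810 (1.80) and ASCRPR008027 (1.78), as log2 changes in SUP.

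The smallest P belonged to probe ASCRPR010217. Its SUP was 11.17, 11.39, 11.09 and 11.03 in the MT rats and 10.21, 10.26, 9.57 and 10.01 in the NS rats. The MT rats lay within a narrow range above all NS rats. The mean was 11.17 ± 0.16 (SD, n = 4) against 10.01 ± 0.32 (SD, n = 4), a 2.23-fold increase with a log2 change of 1.16 (standard error 0.18, adjusted P = 0.161 by limma). It was 0.88 with the percentile and 0.93 without NS replicates 3 and 4, and it passed the criterion in each case.

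**Figure D3:**
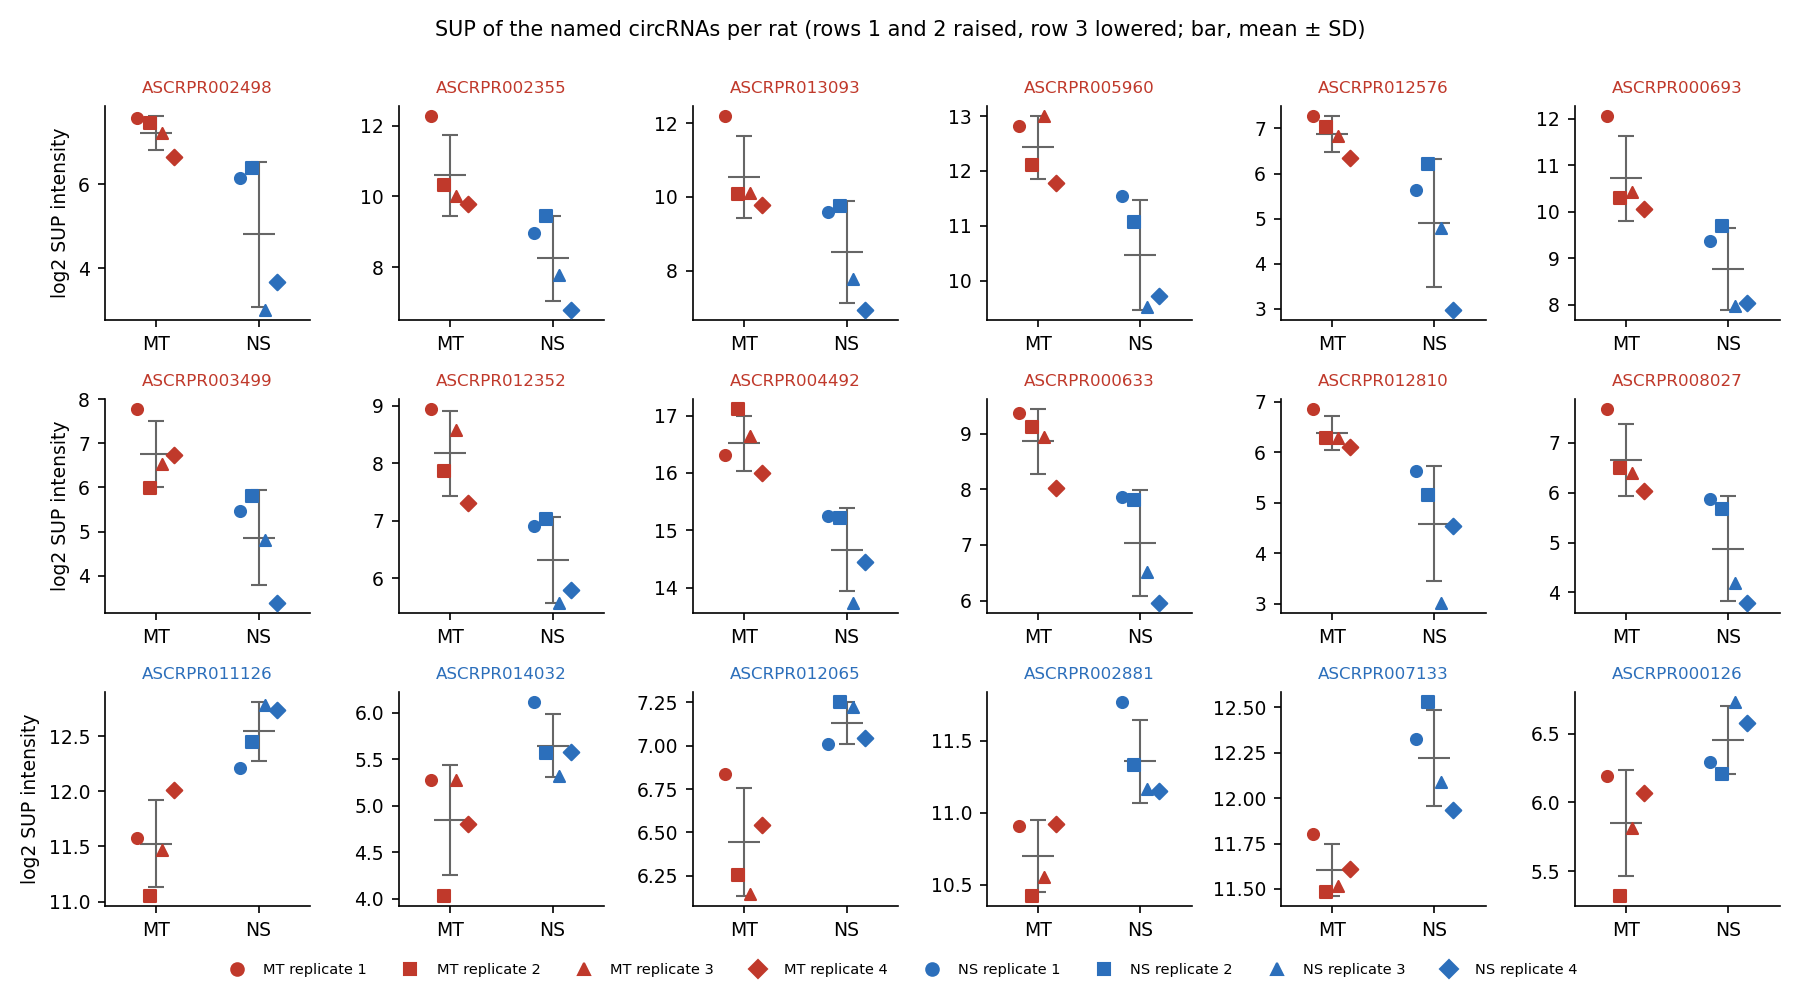
Log2 SUP intensity per rat of the 12 raised circRNAs (top and middle) and the 6 lowered circRNAs (bottom) named by probe, each with the mean ± SD of 4 rats and an axis of its own. NS replicates 3 and 4 are the lowest points in all 12 raised circRNAs. Every MT rat lies above every NS rat in the raised circRNAs and below in the lowered ones, as the choice of these circRNAs required.

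Only 6 circRNAs were lowered with separate groups on both scales. Their log2 changes were between −1.02 and −0.60 with the spike-ins and between −1.29 and −0.88 with the percentile. In ASCRPR011126 and ASCRPR000126, NS replicates 3 and 4 were the highest rats. Without them 5 of the 6 still passed the criterion. With normexp 5 of the 6 lost it, with changes between −0.45 and −0.06, the exception being ASCRPR011126 at −0.80, and 4 lost it with the spike-in median. Leaving out MT replicate 2 alone ended the call in 4 of the 6, and leaving out NS replicate 1 in 3. All 6 were well above background in IP on at least 4 arrays, where their changes were between −0.21 and 0.31.

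Probe ASCRPR011126 had the largest decrease. Its SUP was 11.58, 11.05, 11.47 and 12.01 in the MT rats and 12.21, 12.45, 12.79 and 12.74 in the NS rats. All MT rats were lower, with MT replicate 4 nearest to the NS group. The mean fell from 12.55 ± 0.27 (SD, n = 4) to 11.53 ± 0.40 (SD, n = 4), a difference (log2) of −1.02 (standard error 0.23, adjusted P = 0.161 by limma). Without NS replicates 3 and 4 the change was −0.80, and in IP it was −0.21 (standard error 0.09).

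Probe ASCRPR007133 had the tightest groups of the 6. It was at 11.80, 11.48, 11.52 and 11.61 in the MT rats and at 12.33, 12.53, 12.09 and 11.94 in the NS rats. Here NS replicates 3 and 4 lay nearest to the MT group, and the log2 change of −0.62 (standard error 0.16) became −0.83 without them. IP changed by −0.05. Probe ASCRPR002881 was alike in that respect, with 10.90, 10.42, 10.55 and 10.92 in the MT rats and 11.77, 11.33, 11.17 and 11.15 in the NS rats. Its change was −0.65, and −0.85 without those rats. Probes ASCRPR012065, ASCRPR014032 and ASCRPR000126 had log2 changes of −0.69, −0.80 and −0.60. ASCRPR014032 was well above background on 1 MT array and met the filter through the NS arrays, so its size is uncertain. Its P is no support for a change. ASCRPR000126 did not pass the criterion without NS replicates 3 and 4 (−0.40).

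A few circRNAs were measured in 1 group only. SUP was well above background on all 4 MT arrays and on 0 NS arrays for 4 circRNAs, and on all 4 NS arrays and 0 MT arrays for 1. Their folds are bounds, taken against the lowest signal well above background on each array. The circRNA of ASCRPR003217 was at least 1.83-fold higher in the MT group, with means of 6.06 and 4.69. The bounds were at least 1.75-fold for ASCRPR009393, at least 1.60-fold for ASCRPR009366 and at least 1.51-fold for ASCRPR008994. ASCRPR001602 was at least 1.14-fold higher in the NS group. These circRNAs passed the filter on dim probes only through the group where they were higher, so no test is given. The 4 higher in the MT group are still counted among the 2156 raised. The measured log2 changes of the 4 higher in the MT group were between 0.54 and 1.28 without NS replicates 3 and 4. All 5 lie near the background, where the difference between measured and not measured is small.

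The study listed the top 10 hypermethylated and the top 10 hypomethylated circRNAs after morphine, out of a larger number that it reported. These 20 could be paired with a probe, and the counts below do not cover the others. The lists were chosen on IP of the same rats, so their direction in IP is no independent evidence, while SUP is the other channel of the same arrays. Of the 10 listed hypermethylated circRNAs, 8 were also raised in SUP, where 16.2% of all circRNAs were. Most of the 10 had lower IP than SUP, and in the bin with the lowest such ratio 43.0% were raised. All 10 had a higher mean in the MT group, as had 75.3% of all circRNAs. Their median log2 change was 1.35, against 0.28 over all circRNAs. With the percentile, 7 were raised, against 9.37% of all circRNAs, and the median was 1.07. Without NS replicates 3 and 4, 2 were raised, against 2.7% of all circRNAs, and the median was 0.60. Without MT replicate 1 alone 4 were raised, where 1066 of all 13347 circRNAs were.

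Those 2 were the circRNAs of Suclg2 and Mnd1. For rno_circRNA_011473, from the gene of a subunit of succinyl-CoA ligase in the citric acid cycle, SUP was 10.28, 10.48, 10.56 and 9.82 in the MT rats and 9.28, 9.08, 8.57 and 8.33 in the NS rats. The groups were separate, and NS replicates 3 and 4 were again the lowest rats. The mean rose from 8.82 ± 0.44 (SD, n = 4) in NS to 10.29 ± 0.33 (SD, n = 4) in MT, a change of 1.47 on the log2 scale (standard error 0.25, adjusted P = 0.161 by limma), and without NS replicates 3 and 4 it was 1.01 with the percentile and passed the criterion on both scales. Its IP changed by 1.63 (standard error 0.39), but IP was well above background on 1 NS array, so the size of that change is uncertain. For rno_circRNA_008556, from Mnd1, which acts in meiotic recombination, SUP was 8.89, 9.11, 8.87 and 8.14 in the MT rats and 7.87, 8.00, 7.72 and 7.97 in the NS rats. Its NS rats agreed closely, with an SD of 0.13, and NS replicates 3 and 4 were not apart. The log2 change was 0.86 (standard error 0.21), and 0.82 without those rats.

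Both circRNAs of Mkln1, which encodes muskelin, a member of a ubiquitin ligase complex, were raised. For rno_circRNA_012088, whose primers are shown above, SUP was 12.07, 10.30, 10.43 and 10.07 in the MT rats and 9.37, 9.68, 7.97 and 8.04 in the NS rats. MT replicate 1 was highest and NS replicates 3 and 4 lowest, and the groups did not overlap. The log2 change was 1.95 (standard error 0.56, adjusted P = 0.162 by limma), and 1.19 without NS replicates 3 and 4, where it passed the criterion with the percentile but not with the spike-ins. For rno_circRNA_012089 the change was 1.77 (standard error 0.52). The study listed both by the m6A quantity in IP. By qPCR it reported a lower methylation level in the MT group for the circRNAs whose primers it gives, among them rno_circRNA_012088.

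The other raised circRNAs of that list overlapped more between groups or rested on the low NS rats. The circRNA of Ttc3, the gene of a ubiquitin ligase, changed by 1.56 (standard error 0.57), with NS replicate 2 at 11.52 among the MT rats at 10.86 to 12.43. The circRNA of LOC100360412 changed by 1.39, with MT replicate 1 at 10.55 and the other MT rats between 8.90 and 9.06, just above 8.88 in the highest NS rat. The circRNA of Rtf1, a gene of transcription elongation, changed by 1.31, and its SUP was well above background on 1 NS array. The circRNA of Shq1, which assists the assembly of small nucleolar ribonucleoproteins, changed by 0.59, at the edge of the criterion. The exceptions were the circRNA of Zdhhc20, a palmitoyltransferase gene (1.14, adjusted P = 0.235 by limma), and that of Mga, the gene of a transcription factor (0.69, adjusted P = 0.574 by limma). Without NS replicates 3 and 4 the change of the latter was −0.47.

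**Figure D4:**
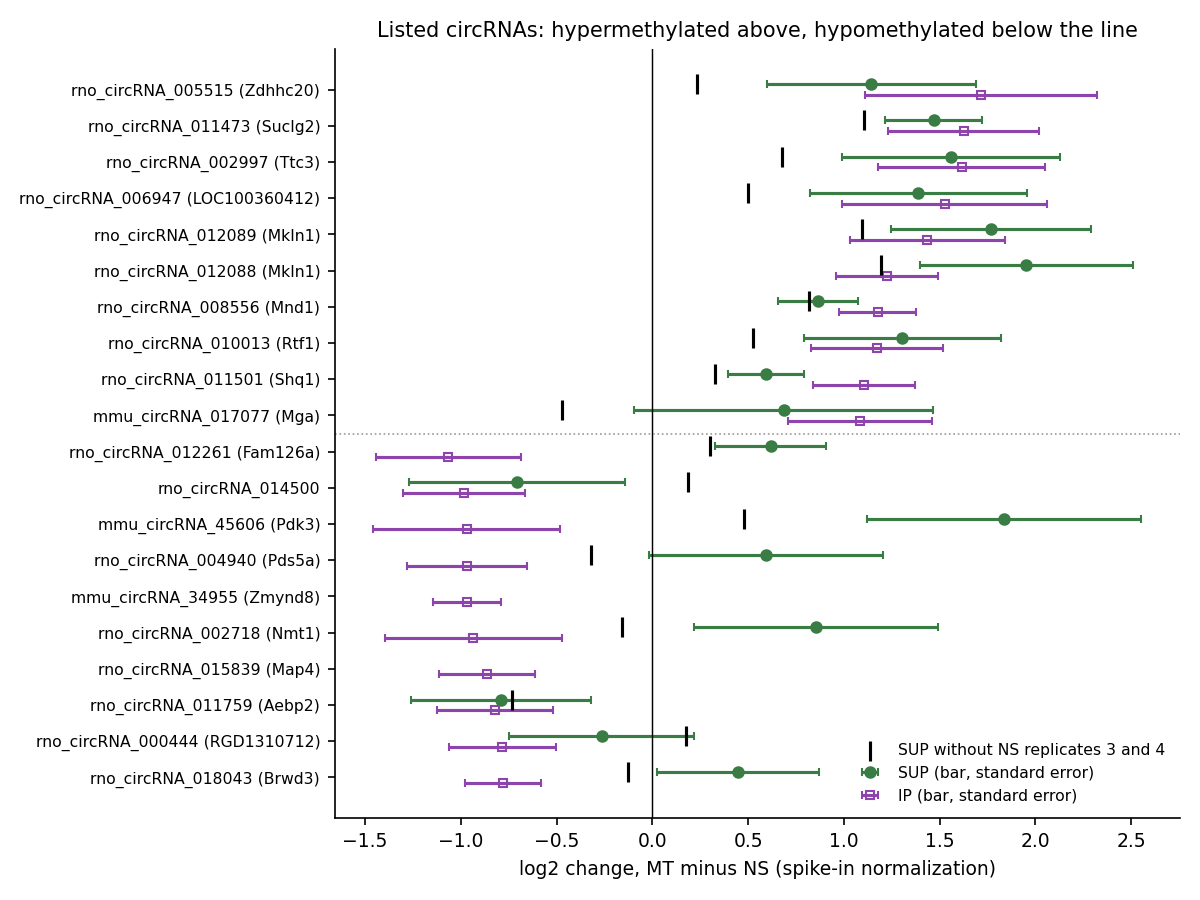
Log2 change (MT minus NS) of each listed circRNA in SUP (circles) and IP (squares) with its standard error, and in SUP without NS replicates 3 and 4 (black ticks). All 10 hypermethylated circRNAs lie to the right in SUP as in IP, the 8 hypomethylated ones tested in SUP lie on both sides, and the ticks of the hypermethylated ones lie to the left of their circles in all 10, by the least for the circRNA of Mnd1.

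Of the 10 listed hypomethylated circRNAs, 8 passed the filter in SUP, of which 3 were well above background on all 8 arrays. None was lowered, 1 was raised, 5 had a higher and 3 a lower mean in the MT group, and in 0 were the groups separate. Over all circRNAs, 16.2% were raised, 0.112% were lowered and 75.3% had a higher mean, and nothing particular to the list is read from these counts. The median log2 change was 0.52, and 0.02 without NS replicates 3 and 4, where 0 were raised. The circRNAs of Zmynd8 and Map4 were well above background in SUP on 3 and 2 of the 8 arrays and were not tested.

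The raised one was mmu_circRNA_45606, from Pdk3, the gene of a pyruvate dehydrogenase kinase. Its SUP was 6.57, 6.31, 6.29 and 5.40 in the MT rats and 5.78, 5.54, 3.00 and 2.90 in the NS rats. MT replicate 4 lay below NS replicates 1 and 2, and the low NS rats were not well above background. The log2 change was 1.84 (standard error 0.72, adjusted P = 0.195 by limma), and 0.48 without them. The linear Pdk3 transcript, measured by a probe of its own, changed by −0.31 (standard error 0.16, adjusted P = 0.257 by limma).

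For rno_circRNA_012261, from Fam126a, the gene of hyccin that is needed for myelination, SUP was 6.58, 6.61, 6.29 and 5.49 in the MT rats and 5.95, 5.93, 5.24 and 5.37 in the NS rats. MT replicate 4 lay among the NS rats. SUP changed by 0.62 (standard error 0.29) and did not pass the criterion (adjusted P = 0.231 by limma), while IP changed by −1.07 (standard error 0.38). The difference between these changes, 1.68, had an adjusted P of 0.274 by limma over all circRNAs with both channels. It contains the IP value by which this circRNA was listed, so it is no independent evidence. SUP of the circRNA of Aebp2, a cofactor of a histone methyltransferase complex, changed by −0.79 (standard error 0.47) and was lowered at the criterion only with the percentile among the 2 scales. It was well above background on 1 MT array and 3 NS arrays, so the size of its change is uncertain. The circRNAs of Pds5a, a cohesin regulator, of Nmt1, a protein myristoyltransferase, and of Brwd3 changed by 0.59, 0.86 and 0.45 in SUP, with adjusted P values between 0.390 and 0.533 by limma, and each was below 0 without NS replicates 3 and 4. They were well above background on 4, 4 and 5 of the 8 arrays, and these changes are estimates near the background.

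Linear transcripts in SUP, which RNase R should have removed in large part, showed no call. Of the 50 probes for linear transcripts, each printed as 10 spots per array, 31 were bright enough to be tested and 17 of these could be named through RefSeq accessions. None passed the criterion with the spike-ins, where 16.2% of the circRNAs were raised, and 3 had P below 0.05 before adjustment (limma). Their changes were between −0.35 and 0.71 with a median of 0.03, 16 above and 15 below 0. With the percentile the median was −0.24 and 2 passed, both lowered and both without a gene name here.

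The neuronal transcripts among them were measured on all 8 arrays. Map2, which encodes a dendritic microtubule-associated protein, changed by 0.12 (standard error 0.15), and Dlg4, which encodes the postsynaptic scaffold PSD-95, by 0.23 (standard error 0.11). P2rx2, the gene of an ATP-gated cation channel, was at 7.74, 7.52, 7.46 and 7.64 in the MT rats and at 7.94, 7.85, 7.96 and 7.77 in the NS rats. All MT rats were lower by a small margin, a change of −0.28 (standard error 0.11, adjusted P = 0.197 by limma). Pop7, a gene of ribonuclease P and MRP, was the other linear transcript with separate groups (−0.19). Nlrp3, the inflammasome sensor, changed by −0.12 and the growth factor gene Fgf2 by −0.15, both within the spread between rats. Markers of glial cells were not among the named probes, and the cell makeup of the cords was not tested.

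**Figure D5:**
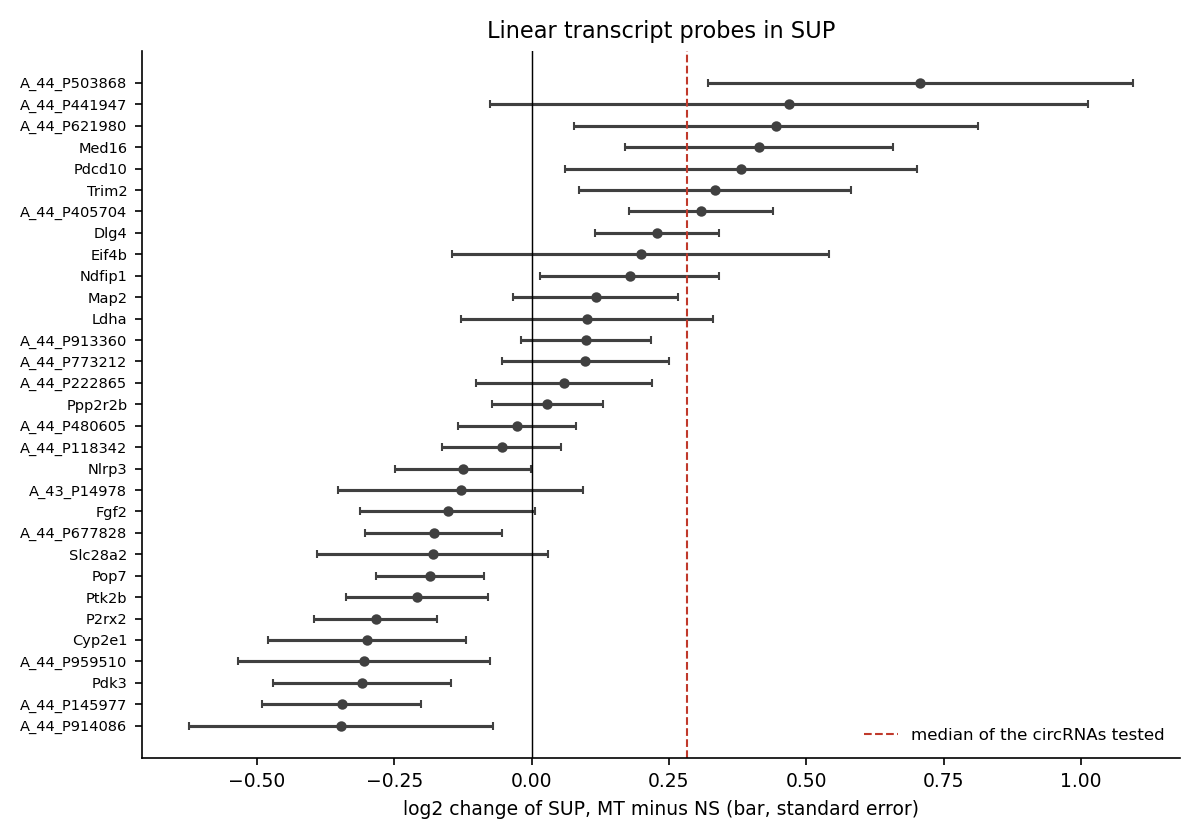
Log2 change of SUP (MT minus NS) of each tested probe for a linear transcript, with its standard error. The changes lie on both sides of 0, and the dashed line marks the median of 0.28 over the circRNAs tested.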

How the data were processed

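Total RNA of the lumbar cords of 8 rats was divided with an anti-m6A antibody and hybridized to Arraystar circRNA arrays. The authors deposited the output of Agilent Feature Extraction 11.0.1.1, in which the processed intensity is corrected for background and normalized between the dyes of an array, so that SUP is tied to IP. The authors also deposited log2 values, normalized with spike-in RNA, for 12893 circRNAs. Each of these is the log2 processed signal shifted by a constant of its array. Of the circRNAs tested here, 678 have no such value.

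SUP was analysed as log2 processed signal less the mean of the 102 spike-in probes of the array, with control and outlier spots left out. Each circRNA has 1 spot per array. Where a spot was left out, in 58 of the circRNAs tested, the fit used the remaining arrays. The comparison used lmFit and eBayes of limma 3.58.1 under R 4.3.3 (Benjamini-Hochberg over all 13347 circRNAs), and values per rat with exact permutation tests. The methods' t-test, which they name for the qPCR data, was run per circRNA on the same values. The linear probes were fitted together with the circRNAs and named through RefSeq accessions. Python 3.11.15 with matplotlib 3.10.9, pandas 2.3.3 and numpy 2.4.6 served for tables and figures. The fit was tested on simulated data.

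The circRNAs named were up to 12 raised and up to 12 lowered ones past the criterion with separate groups with both the spike-ins and the 75th percentile, ordered by the change with the latter, the one with the smallest P, those well above background on all arrays of 1 group only, and the 20 listed by the study. The latter were paired by equality of the listed IP fold change and P to 5 decimals. Lists of host genes and cell type markers had been written but could not be used, since no host gene is given for the other probes. The members and lists were chosen with earlier results of these data known. The bins by the ratio of IP to SUP were also chosen after the data were seen.

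The alternatives were the constants of the deposited values, the 75th percentile, quantile or no normalization, the median or only the detected spike-ins, signal before dye normalization, normexp with offset 50, no filter or all 8 arrays, outlier spots kept, the methods' t-test, an intensity trend, array weights, a replicate block, and leaving out each rat. Normalization to the linear probes and leaving out NS replicates 3 and 4 together were added after the data were seen.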

Additional observations from a re-analysis of the deposited data

Results flagged for a closer look

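A single rat lay far from the other 3 of its group in 7 of the 164 groups of 4 examined, where chance gives about 1 in 20. In the MT group, MT replicate 1 was high in SUP at 12.20 for probe ASCRPR013093 (others 9.78 to 10.11), at 10.55 for ASCRPR007737, the circRNA of LOC100360412 (others 8.90 to 9.06), at 9.57 for linear Map2 (others 8.99 to 9.07) and at 7.38 for linear Trim2 (others 6.39 to 6.54). It was low at 8.18 for linear Cyp2e1 (others 8.52 to 8.56). MT replicate 4 was high at 15.09 for the linear probe A_44_P480605 (others 14.89 to 14.92). In the NS group, NS replicate 1 was low at 7.62 for ASCRPR003523, the circRNA of RGD1310712 (others 9.27 to 9.45). All are log2 SUP intensities, and 5 of the 7 belong to MT replicate 1, the rat at one end of the first principal component.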

How the results depend on the processing

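In no alternative did a circRNA reach an adjusted P under 0.05 by limma or the methods' t-test. No circRNA named for its increase or decrease changed direction in any of them. They had been chosen for large changes with separate groups, and several scales only shift each array by a constant. Their direction was thus largely fixed in advance and is no support. With normexp, 5 of the 12 named for an increase and 5 of the 6 named for a decrease lost the criterion, and 4 of the 6 with the spike-in median. Of those 6, 3 lost it before dye normalization, 4 without MT replicate 2 and 3 without NS replicate 1. The counts moved. The number raised was 1250 with the 75th percentile, 1039 with quantile normalization, 715 without normalization, 3504 with the spike-in median, 765 with normexp, 1370 with the methods' t-test and 3422 with the replicate block. The number lowered was 63 with the deposited constants, 251 with the percentile, 591 with quantile normalization, 255 without normalization, 4 with the spike-in median, 6 before dye normalization, 1 with normexp, 23 without a filter and 67 with array weights. Leaving out each rat gave 1043 raised without NS replicate 3, 1100 without NS replicate 4, 1066 without MT replicate 1 and 3828 without NS replicate 1, which is the full range, and 8 to 45 lowered. Without NS replicates 3 and 4, 360 were raised and 54 lowered, and 249 and 129 with the percentile. Same-numbered rats deviated from their group means with correlations of 0.616, −0.219, −0.116 and 0.593. Deviations within a group are tied to each other, so these values cannot decide whether the numbers pair the rats. Same-numbered arrays share a column of the slide. The labels do not pair the rats, and the block result is given only for completeness.

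Of the listed hypermethylated circRNAs, 5 were raised without normalization, 4 with normexp, 5 with the methods' t-test, 4 to 9 when a rat was left out, 2 without NS replicates 3 and 4, and 4 with the percentile as well. Of the hypomethylated ones, 2 were raised with the spike-in median, array weights or the block, 0 with normexp, with all 8 arrays, with the methods' t-test or without NS replicates 3 and 4 on either scale, and 0 to 2 when a rat was left out. One, the circRNA of Aebp2, was lowered with the percentile, and 1 was lowered with quantile normalization, without normalization, without a filter and with array weights, and 0 to 1 when a rat was left out.

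The difference of the rats' medians was −0.00123 with quantile normalization (exact permutation test, p = 0.543), 0.12 with the percentile, 0.24 with the deposited constants, 0.24 with normexp, 0.37 with the linear probes (exact permutation test, p = 0.0286), 0.29 to 0.48 when a rat was left out, and 0.13 without NS replicates 3 and 4 (exact permutation test, p = 0.6), or 0.0401 with the percentile as well. Listed circRNAs not past the criterion changed sign. ASCRPR013909 (Brwd3) was −0.0308 with quantile normalization and −0.00795 with normexp, and −0.13 and −0.22 without NS replicates 3 and 4 with the spike-ins and the percentile. ASCRPR012641 (Pds5a) was −0.00785 with normexp, and −0.32 and −0.41 without them. ASCRPR003523 (RGD1310712), at −0.26 with all rats and −0.70 without NS replicate 1, was 0.00305 without MT replicate 1. It was 0.18 and 0.0850 without NS replicates 3 and 4. Also without them, ASCRPR010479 (Mga) was −0.47 and −0.56, and ASCRPR010376 (Nmt1) was −0.16 and −0.25. ASCRPR008403 (rno_circRNA_014500), at −0.71 with all rats, was then 0.19 and 0.0948. The causes were not tested. Dim probes limit the size of many changes, since a value near the background has only a bound.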
